A study of Mus musculus with 8 samples.

Results

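Collagens, small leucine-rich proteoglycans and the proteins that cross-link and accompany them form the scaffold of the gallbladder wall. Their RNA was followed in leptin-deficient mice given leptin or saline, to see which of them differed between the treatments. A gene was included when the symbol of a probe set, the group of short probes that reports a transcript on the array, was its only annotated symbol and was that of a collagen chain (Col, a number, a, a number) or Bgn, Dcn, Lum, Fmod, Ogn, Prelp, Lox, Loxl1, Loxl2, Sparc, Postn, Fn1, Fbn1 or Eln. This gave 54 of the 18194 genes with a single-symbol probe set, namely 42 collagen genes and 12 others, measured by 111 of the 45101 probe sets. Fbn1 and Loxl2 had no probe set of their own in the annotation used and were not analysed here.

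All mice were females of the B6.V-lepob strain, so leptin-treated animals and controls alike carried the ob mutation that removes functional leptin, and no lean mice were compared. Of 24 mice, 12 received recombinant mouse leptin at 5 µg per g body weight and 12 received saline, each by daily injection into the peritoneum for 4 weeks. They were fed standard chow, fasted overnight and sampled at 12 weeks of age. RNA from 3 gallbladders was pooled, which gave 4 saline pools (numbered 1 to 4) and 4 leptin pools (5 to 8), each on 1 Affymetrix array, so every spread below is between pools of mice. Values are MAS 5.0 signals, the brightness that the array maker's software gives each probe set.

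As background, fibrillar collagens such as types I and III are secreted as triple helices, assemble outside the cell into fibrils and give the wall tensile strength. Small leucine-rich proteoglycans bind the surface of the fibrils and set their diameter and spacing, and several of them also bind the growth factor TGF-beta. Lysyl oxidases then cross-link collagen and elastin, while type IV collagen forms the sheet-like basement membrane beneath the epithelium, around smooth muscle and around vessels. In a hollow organ such as the gallbladder, fibroblasts and smooth muscle cells make most of this material.

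The arrays had all been scaled to a trimmed mean signal of 250, and no pair was identical (mean absolute log2 difference between pairs 0.274 to 0.482). Median signals still lay apart, at 77.8 to 87.3 in saline pools and 94.0 to 107 in leptin pools. The ratio of the 3' to the 5' actin signal, which rises as RNA breaks, was 1.60 ± 0.0882 (SD, n = 4) with saline and 1.89 ± 0.207 (SD, n = 4) with leptin (two-sided exact permutation p = 0.0571, where 0.0286 is the smallest possible). The same ratio for GAPDH was 0.813 ± 0.0409 and 0.818 ± 0.0248 (exact permutation p = 0.857). Epithelial keratins, the defining markers of the gallbladder lining, and smooth muscle genes were bright in every pool, and so were hepatocyte genes, whose 5 markers summed to 53830 to 83360 with saline and 69490 to 80360 with leptin. All 7 macrophage markers rose, with sums of 2980 to 3719 with saline and 7319 to 8513 with leptin. Of 8 epithelial markers 3 fell (Krt7, Krt8 and Krt18), and the epithelial sum was 40320 to 50140 with saline and 33920 to 38270 with leptin. Of 9 fibroblast markers 1 rose (Dpt, log2 fold change 0.63 ± 0.12 SE, limma adjusted p = 0.0101), and the sums overlapped (5690 to 8804 and 6570 to 8944). Of 9 smooth muscle markers Smtn rose and Actg2 fell, and of 5 hepatocyte markers Apoa1 rose. Among 5 adipocyte markers Cidec fell, and all 5 log2 fold changes were negative (-2.03 to -0.27). The adipocyte sums were uneven among saline pools, from 3459 in saline 4 to 11910 in saline 1, and were 3282 to 5583 with leptin. No endothelial, mesothelial or pancreatic acinar marker was called by limma (1, 1 and 0 had an unadjusted p under 0.05). Of all 11719 genes tested by their brightest probe set, 4.29% rose and 3.98% fell at a limma adjusted p under 0.05. Lists with a single call are to be read beside these shares. In these whole-organ pools, fewer cells of a type and less RNA per cell cannot be told apart, and the part of cell makeup and of RNA quality in the differences that follow was not tested except where a value is given.

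After leptin, RNA of 4 of the 6 small proteoglycan genes and of 4 collagen genes (Col3a1, Col27a1, Col14a1 and Col6a2) was higher in at least 1 probe set. That of Col4a1, a chain of the basement membrane, and of the cross-linking enzyme Lox was lower in at least 1. The brightest probe sets of Col3a1 and Lox were not called (limma adjusted p = 0.0831 and 0.177). Of the 111 probe sets, 61 from 35 genes were bright enough to test, and 12 rose and 2 fell at a limma adjusted p under 0.05, the threshold used throughout for a call. Over all 22519 probe sets tested, 6.93% were called, 3.54% as rises and 3.39% as falls. By the brightest probe set of each gene, 7 of the 35 genes rose and 1 fell, against 4.29% and 3.98% of all 11719 genes. The log2 fold change, leptin minus saline, was above 0 for 47 of the 61 probe sets, compared with 54.9% of all tested, and its median was 0.23, compared with 0.04 for all. All 4 leptin pools lay above all 4 saline pools for 15 of the 61 and below them for 4, which happened for 8.12% and 7.4% of all tested. Of the 14 calls, 13 had such separate pools.

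These counts depended on the RNA quality measure and on the scale. With the actin ratio as a covariate in limma, 1 member probe set was called, Col3a1 1427884_at, and the median over the 61 was 0.14. Among all tested probe sets 654 were called in that fit, against 1561 as reported. For Col4a1 1452035_at the difference stayed and its error grew (-0.46 ± 0.096 SE as reported, -0.47 ± 0.14 with the covariate). For Fmod 1456084_x_at the difference shrank and its error grew (0.82 ± 0.17, then 0.45 ± 0.22). Centring each array on its median signal moved the median log2 fold change of all tested probe sets from 0.04 to -0.21. It gave 3 rises and 7 falls among the members, and 406 rises and 3586 falls among all tested. Directions of small differences are therefore relative to the scale. The member median was 0.19 above that of all tested probe sets as reported. Median centring moves every log2 fold change by the same amount, so it could not change this gap. Leaving out any single pool left between 6 (without saline 4) and 11 calls (without saline 3), with 7 without leptin 5 or leptin 6, 8 without saline 1, saline 2 or leptin 7, and 9 without leptin 8. Of the 14 calls, 11 remained with quantile scaling, 12 with loess scaling, 5 with median centring, 6 without the filter on dim probe sets and 4 without the variance trend. Over the fits that left out a pool, 5 held in all of these fits: Lox 1448228_at, Col4a1 1452035_at, Col27a1 1429549_at, and Fmod 1456084_x_at and 1437324_x_at.

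**Figure D1:**
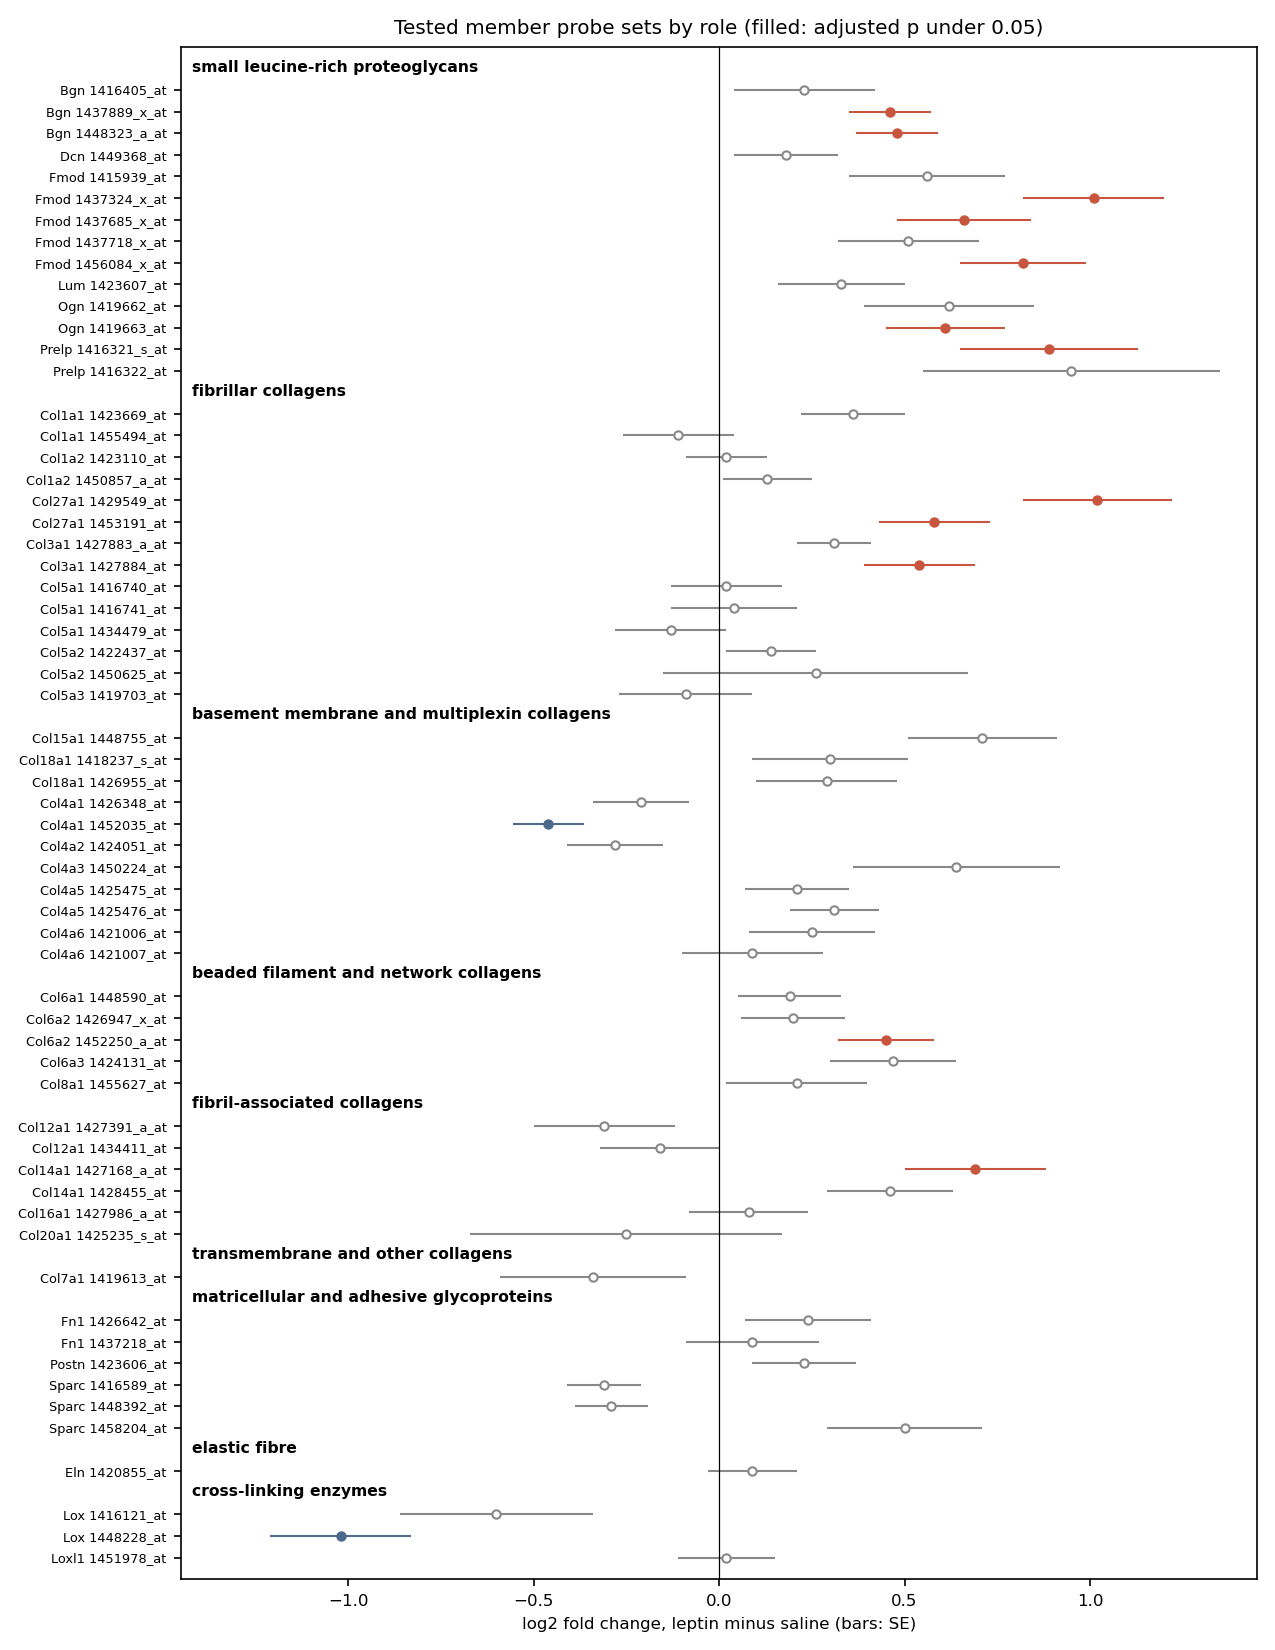
Log2 fold change (leptin minus saline, horizontal axis, bars SE) of each of the 61 tested member probe sets, grouped by role; filled points passed an adjusted p under 0.05. All 14 proteoglycan probe sets lie right of 0 (12 with median centring), whereas the collagen groups lie on both sides, from -0.46 to 1.02.

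Several small leucine-rich proteoglycans rose. Fibromodulin (Fmod), PRELP (Prelp), osteoglycin (Ogn) and biglycan (Bgn) were each higher with leptin in at least 1 probe set, whereas decorin (Dcn) and lumican (Lum) were not called. Of the 14 tested probe sets of these 6 genes 7 rose, none fell and all 14 had a positive log2 fold change (12 with median centring), with a median of 0.58 and a range of 0.18 to 1.01; 3.54% of all tested probe sets rose. The 7 calls became 2 without leptin 5, 3 without saline 4 or leptin 6, 4 without saline 1, leptin 7 or leptin 8, 5 without saline 2 and 7 without saline 3. They became 3 without the filter on dim probe sets and 2 without the variance trend or with median centring. In the gene order of assembly GRCm38.p6, Prelp and Fmod are next to each other, Dcn and Lum are neighbours, and Ogn closes the run Ecm2, Aspn, Omd and Ogn. The 250 bases before the start sites of the 4 called genes are shown with that of Col27a1, the collagen with the largest fitted rise among those tested, as the regions from which these RNAs are started. They are RefSeq sequences of build GRCm38.p6, 5' to 3' on the gene's strand: Fmod at chr1:134037004-134037253 (plus strand), Prelp at chr1:133921402-133921651 (minus), Bgn at chrX:73483351-73483600 (plus), Ogn at chr13:49607765-49608014 (plus) and Col27a1 at chr4:63215162-63215411 (plus). Capitals mark matches to the searched motifs.
Fmod: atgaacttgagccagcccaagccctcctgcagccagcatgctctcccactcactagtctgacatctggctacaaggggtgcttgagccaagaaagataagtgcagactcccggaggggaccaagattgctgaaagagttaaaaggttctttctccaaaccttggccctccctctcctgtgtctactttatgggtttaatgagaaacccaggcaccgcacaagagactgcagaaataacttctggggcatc
Prelp: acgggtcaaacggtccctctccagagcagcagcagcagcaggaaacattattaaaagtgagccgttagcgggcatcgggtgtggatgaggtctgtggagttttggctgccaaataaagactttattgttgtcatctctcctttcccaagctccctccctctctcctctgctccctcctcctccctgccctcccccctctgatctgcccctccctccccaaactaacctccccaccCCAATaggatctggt
Bgn: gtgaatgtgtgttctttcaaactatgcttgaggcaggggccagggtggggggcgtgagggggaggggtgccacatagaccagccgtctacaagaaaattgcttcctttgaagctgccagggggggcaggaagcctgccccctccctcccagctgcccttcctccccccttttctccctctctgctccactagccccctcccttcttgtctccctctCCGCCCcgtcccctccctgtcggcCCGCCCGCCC
Ogn: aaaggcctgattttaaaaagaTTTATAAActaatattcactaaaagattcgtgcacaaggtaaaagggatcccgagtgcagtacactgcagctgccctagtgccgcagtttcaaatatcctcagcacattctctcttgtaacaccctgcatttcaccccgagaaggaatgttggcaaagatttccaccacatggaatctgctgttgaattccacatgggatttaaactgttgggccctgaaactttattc
Col27a1: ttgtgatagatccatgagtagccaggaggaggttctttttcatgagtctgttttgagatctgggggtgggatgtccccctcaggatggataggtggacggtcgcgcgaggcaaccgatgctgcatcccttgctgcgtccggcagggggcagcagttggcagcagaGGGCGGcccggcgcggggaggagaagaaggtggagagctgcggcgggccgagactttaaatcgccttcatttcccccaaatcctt

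The motifs searched on both strands were CCAAT (the CCAAT box), TATAAA (the TATA box), GGGCGG (the GC box), TGANTCA (the AP-1 site) and TTCNNNGAA (the STAT site). The Fmod window held none of them. Prelp had a CCAAT box whose first base lay at -15 from the start, and Col27a1 a GC box at -85. Bgn had 3 GC box matches at -34, -10 and -6, the last pair overlapping. Ogn had TATA box letters at -229 and -227, which overlap. Among the 43 windows of the 39 member genes that had one, GC boxes were in 22 (51.2%, against 32.7% of all 32851 windows), CCAAT boxes in 14 (32.6%, against 33.8%) and TATA boxes in 7 (16.3%, against 12.4%). The AP-1 letters were in 1 (2.33%, against 6.75%), and so were the STAT letters (2.33%, against 7.02%). Of the printed windows, GC content ran from 42.0% for Ogn to 64.4% for Bgn, and the median of all windows was 52.4%. These matches describe letters in the window only.

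Fibromodulin, which binds collagen I fibrils and limits their thickening, had 5 tested probe sets. In the brightest, 1456084_x_at, signals were 235.8, 311.0, 264.0 and 222.2 in saline pools 1 to 4 and 612.7, 413.9, 438.2 and 393.4 in leptin pools 5 to 8. Every leptin pool exceeded every saline pool, and leptin 5 was the highest. The mean rose from 258.2 ± 39.2 to 464.6 ± 100 (SD, n = 4), 1.76-fold (log2 fold change 0.82 ± 0.17 SE, limma adjusted p = 0.0130). Probe set 1437324_x_at read 92.1, 90.5, 113.6 and 78.9 with saline and 223.9, 207.8, 183.8 and 172.9 with leptin. The groups were again separate, and this was the larger rise, 2.02-fold (1.01 ± 0.19, adjusted p = 0.00819). The third call, 1437685_x_at (0.66 ± 0.18, adjusted p = 0.0466), was the weakest. The other two, 1415939_at (0.56 ± 0.21, adjusted p = 0.126) and 1437718_x_at (0.51 ± 0.19, adjusted p = 0.116), were not called and their pools overlapped. The suffix _x marks probe sets in which some probes can match other transcripts, and all but 1415939_at carry it.

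Both larger Fmod rises were called in every fit that left out a pool and were lost with the actin ratio as covariate. There the log2 fold change of 1456084_x_at was 0.45 (adjusted p = 0.301, range over all alternatives 0.0107 to 0.301) and that of 1437324_x_at 0.80 (adjusted p = 0.169, range 0.00504 to 0.169). The call of 1437685_x_at was held only without saline 3 among those fits and was lost without any other pool (adjusted p 0.0511 to 0.119).

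PRELP anchors basement membranes to the connective tissue below. Its brightest probe set, 1416321_s_at, read 1183.7, 1054.5, 1152.9 and 556.8 with saline and 2621.1, 1448.8, 1591.6 and 1612.6 with leptin. The groups did not overlap, but saline 4 lay far below the other saline pools and leptin 5 far above the other leptin pools. It rose 1.86-fold, from 987 ± 292 to 1819 ± 540 (SD, n = 4; 0.89 ± 0.24 SE, limma adjusted p = 0.0401). Without saline pools 2 or 4 or leptin pools 5, 6 or 8 the adjusted p was 0.0562 to 0.0952, so the call was lost. The second probe set, 1416322_at, had the same direction with more spread (225.6, 170.2, 177.0 and 47.8, then 320.4, 155.2, 403.0 and 261.9). Its pools overlapped through leptin 6, and it was not called (0.95 ± 0.40, adjusted p = 0.172).

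Osteoglycin, a small proteoglycan of connective tissue and bone also called mimecan, read 444.2, 691.0, 666.4 and 523.2 with saline and 1026.9, 789.5, 961.5 and 752.8 with leptin in 1419663_at. The lowest leptin pool, 8, stood above the highest saline pool, 2. The rise was 1.52-fold, from 581.2 ± 118 to 882.7 ± 132 (SD, n = 4; 0.61 ± 0.16 SE, limma adjusted p = 0.0416). The other probe set, 1419662_at, gave nearly the same log2 fold change with a larger error (0.62 ± 0.23, adjusted p = 0.121). Without saline 1, saline 4 or any leptin pool the call of 1419663_at was lost (adjusted p 0.0513 to 0.104).

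Biglycan binds collagen fibrils and TGF-beta and can act on toll-like receptors when released. Probe set 1448323_a_at read 2545.2, 2946.2, 2894.4 and 2281.8 with saline and 3855.3, 3622.2, 3881.7 and 3421.8 with leptin. Spread was small in both treatments and the pools were separate. The mean rose 1.39-fold, from 2667 ± 312 to 3695 ± 216 (SD, n = 4; 0.48 ± 0.11 SE, limma adjusted p = 0.0190). The brightest probe set, 1437889_x_at, read 2702.4, 3239.7, 3352.1 and 2719.1, then 4542.3, 3710.5, 4528.9 and 3779.9. It also rose without overlap (0.46 ± 0.11, adjusted p = 0.0291), whereas 1416405_at was not called (0.23 ± 0.19, adjusted p = 0.493). The call of 1448323_a_at was lost without leptin 5 or leptin 6 (adjusted p 0.0513 to 0.0521), and that of 1437889_x_at without saline pools 1 or 4 or leptin pools 5 or 7 (0.0588 to 0.0777).

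Decorin, the close relative of biglycan and a main proteoglycan of fibrous tissue, read 5023.4, 7780.4, 7310.5 and 6056.1 with saline and 8354.0, 6422.4, 7705.2 and 6830.6 with leptin. The pools were interleaved and the log2 fold change was 0.18 ± 0.14 (limma adjusted p = 0.469). Lumican, which organises fine collagen fibrils, read 667.7, 897.4, 983.2 and 969.2, then 1408.9, 920.7, 1220.0 and 895.2. Leptin 6 and 8 lay within the saline range, and it was not called (0.33 ± 0.17, adjusted p = 0.272). With the actin ratio as covariate none of the 14 proteoglycan probe sets was called by limma, 11 of them were positive and their median was 0.34, which is 0.29 above that of all tested probe sets, against 0.55 above it as reported. With median centring 12 of the 14 were positive and their median was 0.33.

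**Figure D2:**
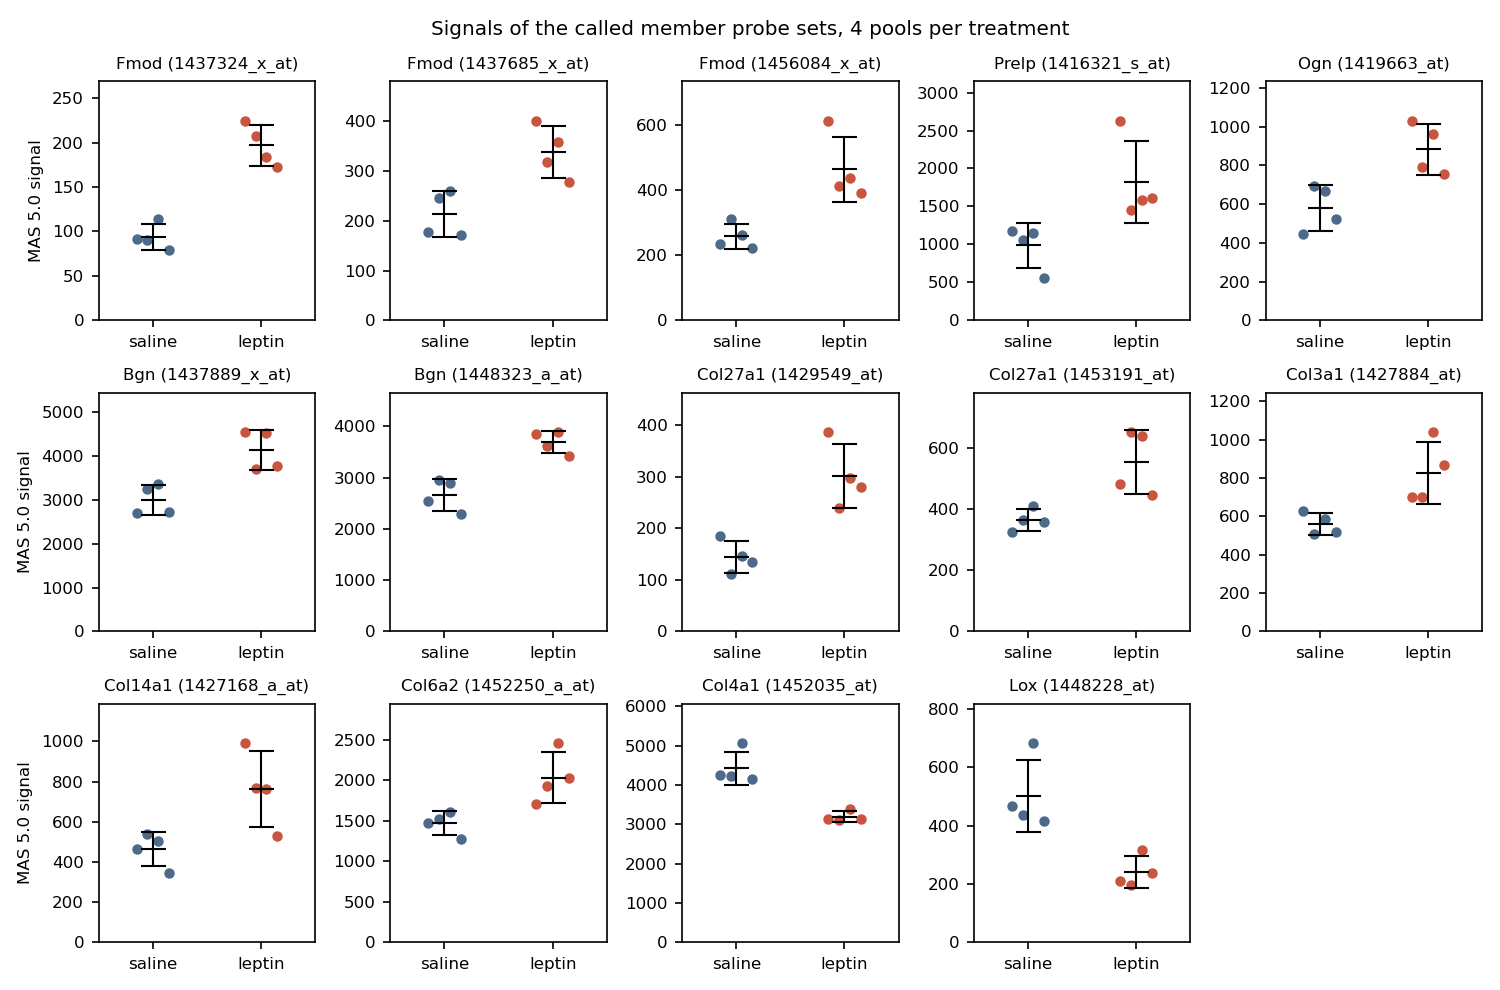
MAS 5.0 signal (vertical axes, linear, from 0) of the 14 called member probe sets in each of the 4 saline and 4 leptin pools, with means and SD. Groups are separate in 13 panels; in Col14a1 (1427168_a_at) leptin 8 (531.8) lies below saline 2 (541.1).

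Among fibrillar collagens 3 of 14 tested probe sets rose, against 3.54% of all tested, and none fell. Their median log2 fold change was 0.13 and the range -0.13 to 1.02. The rises were in Col27a1, a fibrillar collagen known mainly from cartilage, and in Col3a1, the chain of type III collagen of distensible tissues. Col27a1 1429549_at read 185.5, 110.7, 145.9 and 134.6 with saline and 385.8, 238.2, 296.9 and 280.8 with leptin. All leptin pools were above the highest saline pool, saline 1. The mean rose 2.03-fold, from 144.2 ± 31.2 to 300.4 ± 62.1 (SD, n = 4; 1.02 ± 0.20 SE, limma adjusted p = 0.00894). In the brighter 1453191_at the signals were 324.9, 364.3, 411.9 and 359.3, then 481.7, 651.7, 639.1 and 447.0. These were separate too, and the rise was 1.49-fold (0.58 ± 0.15, adjusted p = 0.0410). The larger rise was called without each pool in turn and among the 18 alternatives lost only with the actin ratio as covariate (log2 fold change 0.91, adjusted p = 0.131, range over alternatives 0.00343 to 0.131). That of 1453191_at was lost without saline pools 1, 2 or 4 or leptin pools 5, 6 or 7 (adjusted p 0.0507 to 0.117).

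Col3a1 1427884_at read 629.4, 507.2, 586.4 and 519.5 with saline and 701.2, 701.9, 1038.7 and 868.9 with leptin. The groups did not overlap, and the mean rose from 560.6 ± 57.6 to 827.7 ± 161 (SD, n = 4; 0.54 ± 0.15 SE, limma adjusted p = 0.0451). This was the call that remained with the actin ratio as covariate (0.83, adjusted p = 0.0406, range over alternatives 0.0227 to 0.200), but it was lost without saline pools 2, 3 or 4 or leptin pools 6, 7 or 8 (0.0549 to 0.120). The brighter 1427883_a_at read 4612.2, 4836.3, 5276.8 and 5107.7, then 6227.7, 5831.5, 7107.4 and 5503.3. Its pools were separate as well, yet the difference was smaller and missed the threshold (0.31 ± 0.10, adjusted p = 0.0831).

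The chains of type I collagen, the main fibril former of most tissues, were not called. Col1a1 1423669_at read 1138.0, 808.1, 1099.5 and 843.6 with saline and 1118.5, 1184.3, 1358.9 and 1305.3 with leptin (0.36 ± 0.14, limma adjusted p = 0.131), while 1455494_at had the opposite sign (-0.11 ± 0.15, adjusted p = 0.706). Saline 1 exceeded leptin 5 in the first of these, so the pools overlapped. Col1a2 1450857_a_at read 3129.3, 3684.9, 4122.4 and 3518.5, then 3962.7, 3277.5, 4464.2 and 4109.8 (0.13 ± 0.12, adjusted p = 0.551), and its second probe set differed by 0.02 ± 0.11. Type V chains, which nucleate type I fibrils, lay between -0.13 and 0.26, with no call. Col5a2 is the gene next to Col3a1 in the order of assembly GRCm38.p6, and its brighter probe set differed by 0.14 ± 0.12 on the log2 scale (adjusted p = 0.531).

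Basement membrane and related collagens went in both directions. Of 11 tested probe sets 1 fell and none rose, against 6.93% called of all tested, and log2 fold changes ran from -0.46 to 0.71. Col4a1 and Col4a2, which together form the common type IV network, had the negative values, whereas the chains Col4a3, Col4a5 and Col4a6 of specialised membranes and the multiplexins Col15a1 and Col18a1 had positive ones. None of the positive values was called, and the signs of the small ones are relative to the scale. In Col4a1 1452035_at the signals were 4262.3, 4227.3, 5056.1 and 4137.7 with saline and 3142.9, 3104.5, 3396.5 and 3126.4 with leptin. The leptin pools were tightly grouped and all lay below the saline pools. The mean fell from 4421 ± 427 to 3193 ± 137 (SD, n = 4), to 0.725 of the saline level (-0.46 ± 0.096 SE, limma adjusted p = 0.0126). It was called without each pool in turn, but not with quantile or loess scaling (both -0.33), without the variance trend, with the actin ratio as covariate (-0.47 ± 0.14), or as the mean of both Col4a1 probe sets (adjusted p 0.0597 to 0.102 in these 5 alternatives). Its second probe set, 1426348_at, was not called (-0.21 ± 0.13, adjusted p = 0.360).

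Col4a2 starts 21 bases from Col4a1 on the opposite strand of chromosome 8 (RefSeq, build GRCm38.p6). Col4a1 starts at 11312826 on the minus strand and Col4a2 at 11312805 on the plus strand. The annotated first bases of the pair therefore overlap, and the genes are read in opposite directions. Col4a2 read 1686.4, 1331.9, 1779.7 and 1377.6 with saline and 1208.5, 1132.7, 1444.7 and 1265.7 with leptin. Leptin 7 reached into the saline range, and the difference was not called (-0.28 ± 0.13, limma adjusted p = 0.200). Col15a1, found where basement membranes meet the connective tissue, read 211.2, 238.9, 199.5 and 165.8, then 356.2, 245.7, 471.0 and 304.6. Its pools were separate, leptin 6 by little, and it stood just outside the threshold (0.71 ± 0.20, adjusted p = 0.0501). It was called without leptin 6 (0.0317), and the range over alternatives was 0.0317 to 0.184. Just inside the threshold were Col6a2 1452250_a_at (0.0484) and Fmod 1437685_x_at (0.0466), and the next outside was Col3a1 1427883_a_at (0.0831).

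Of the minor type IV chains, Col4a5 1425476_at read 529.8, 611.7, 621.2 and 505.5 with saline and 641.1, 693.8, 768.0 and 705.2 with leptin, without overlap and without a call (0.31 ± 0.12, limma adjusted p = 0.151). Col4a3 differed by 0.64 ± 0.28 (adjusted p = 0.182), and Col4a6 by 0.25 ± 0.17 and 0.09 ± 0.19. Col18a1, whose end fragment is endostatin and which liver cells also make, read 962.0, 1439.3, 1704.3 and 1013.5, then 1860.4, 1477.2, 1082.6 and 1864.9 (0.30 ± 0.21, adjusted p = 0.408). In this probe set saline 1 was the lowest saline pool and leptin 7 the lowest leptin pool, as they were within each treatment for the summed hepatocyte markers (53830 and 69490). In the other probe set, 1426955_at, saline 4 (1006.6) was the lowest pool. What part liver RNA has in these values was not tested.

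Type VI collagen forms beaded filaments around cells and between fibrils. Col6a2 1452250_a_at read 1476.3, 1527.5, 1614.3 and 1276.8 with saline and 1712.7, 1926.5, 2456.9 and 2027.4 with leptin. The pools were separate, with leptin 7 the highest, and the mean rose 1.37-fold, from 1474 ± 143 to 2031 ± 313 (SD, n = 4; 0.45 ± 0.13 SE, limma adjusted p = 0.0484). The call was lost without any single pool other than leptin 5 (0.0587 to 0.121), and its other probe set, 1426947_x_at, was not called (0.20 ± 0.14, adjusted p = 0.421). Col6a1, the gene next to it, read 1666.5, 1709.3, 1702.3 and 1189.9, then 1817.7, 1527.8, 2033.8 and 1727.0. Leptin 6 was below 3 of the saline pools, and the difference was 0.19 ± 0.14 (adjusted p = 0.440). Col6a3 differed by 0.47 ± 0.17 (adjusted p = 0.111) and Col8a1, a short-chain network collagen of vessels, by 0.21 ± 0.19 (adjusted p = 0.552). All 5 tested probe sets of this group were positive and 1 was called, against 54.9% positive and 6.93% called of all tested. With median centring Col6a1 (-0.06) and Col6a2 1426947_x_at (-0.05) were negative.

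Fibril-associated collagens sit on fibrils without forming any. Col14a1, which links fibrils to other matrix proteins, rose in 1427168_a_at, from 462.5, 541.1, 502.4 and 347.7 with saline to 990.4, 767.4, 762.4 and 531.8 with leptin. Leptin 8 overlapped the saline pools and the other leptin pools did not. The rise was 1.62-fold, from 463.4 ± 83.6 to 763 ± 187 (SD, n = 4; 0.69 ± 0.19 SE, limma adjusted p = 0.0444), and was called only without leptin 8 among the fits that left out a pool (0.0190, the others 0.0576 to 0.117). Its second probe set had separate pools and no call (0.46 ± 0.17, adjusted p = 0.126). Col12a1, its relative in dense connective tissue, had values of -0.31 ± 0.19 (adjusted p = 0.363) and -0.16 ± 0.16 (adjusted p = 0.565), Col16a1 of 0.08 ± 0.16 and Col20a1 of -0.25 ± 0.42. Of the 6 tested probe sets 1 rose, against 3.54% of all tested, and the median was -0.04. Col7a1, the anchoring fibril collagen, differed by -0.34 ± 0.25 (adjusted p = 0.447).

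Lysyl oxidase (Lox), which oxidises lysines so that collagen and elastin chains cross-link, had the largest fall among the tested member probe sets. Probe set 1448228_at read 467.7, 437.9, 682.3 and 415.5 with saline and 210.6, 197.5, 317.7 and 239.0 with leptin. Every leptin pool was below every saline pool, and pool 3 and pool 7 were the highest of their treatment. The mean fell from 500.8 ± 123 to 241.2 ± 53.9 (SD, n = 4), to 0.492 of the saline level (-1.02 ± 0.19 SE, limma adjusted p = 0.00717). It was called in 18 of 19 alternatives, including each fit that left out a pool, and was lost with the actin ratio as covariate (-0.89, adjusted p = 0.123, range 0.000596 to 0.123). The brighter 1416121_at read 698.0, 551.5, 994.7 and 475.2, then 351.5, 358.3, 727.1 and 363.4. Leptin 7 lay within the saline range and the other leptin pools below it, so that the difference was not called (-0.60 ± 0.26, adjusted p = 0.177). Without leptin 7 it was called (-0.85, adjusted p = 0.0324, range over alternatives 0.0222 to 0.752). By its brightest probe set Lox therefore counts as not called. The related Loxl1 read 489.3, 566.4, 585.1 and 449.7, then 526.4, 488.6, 597.3 and 499.3, with the pools interleaved (0.02 ± 0.13, adjusted p = 0.953).

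Elastin (Eln), the elastic core that Loxl1 helps cross-link, was at 926.2 ± 109 with saline and 984.9 ± 69.5 (SD, n = 4) with leptin in its tested probe set (0.09 ± 0.12, limma adjusted p = 0.679). None of the 6 probe sets of the glycoproteins Sparc, Postn and Fn1 was called by limma. An unadjusted p under 0.05 was reached by 3 of them. That looser cut was also passed by every called probe set, 6.93% of all tested, and by further ones. The full share of all probe sets at that cut was not counted, so the count cannot be compared with it. SPARC, a collagen-binding protein needed for fibril assembly, read 3914.2, 3429.3, 4156.9 and 3951.6 with saline and 3378.8, 2937.4, 3354.4 and 2992.7 with leptin in 1448392_at. All leptin pools were below all saline pools, by a small margin between leptin 5 and saline 2 (-0.29 ± 0.099, adjusted p = 0.102). The same held for 1416589_at (-0.31 ± 0.10, adjusted p = 0.0901), whereas 1458204_at had the opposite sign (0.50 ± 0.21, adjusted p = 0.173). Periostin (Postn), which promotes cross-linking, read 2704.4, 3410.3, 3449.2 and 3302.0, then 4325.7, 3243.4, 4527.9 and 3134.5. Leptin 5 and 7 were above all others, leptin 6 and 8 within the saline range, and the difference was 0.23 ± 0.14 (adjusted p = 0.336).

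Fibronectin (Fn1), an adhesive glycoprotein that fibroblasts lay down and liver cells secrete into plasma, read 3076.9, 4490.8, 5459.2 and 3400.5 with saline and 5166.0, 4107.5, 4204.9 and 5590.2 with leptin. Saline 3 and leptin 5 and 8 were high, saline 1 and 4 low, and the treatments overlapped (0.24 ± 0.17, limma adjusted p = 0.423). The other tested probe set, 1437218_at, was highest in saline 2 (251.1) and was not called (0.09 ± 0.18, limma adjusted p = 0.804). The hepatocyte markers summed to 53830, 76110, 83360 and 66600 in saline pools 1 to 4. In leptin pools 5 to 8 they summed to 80360, 77470, 69490 and 79090. From lowest to highest, the saline pools had the order 1, 4, 2, 3 both for these sums and for Fn1 1426642_at, the probe set given first. Leptin 5 and 8 were the highest leptin pools in both, whereas leptin 6 had a higher sum than leptin 7 and a lower Fn1 signal (4107.5 and 4204.9). What part liver RNA has in the Fn1 values was not tested.

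**Figure D3:**
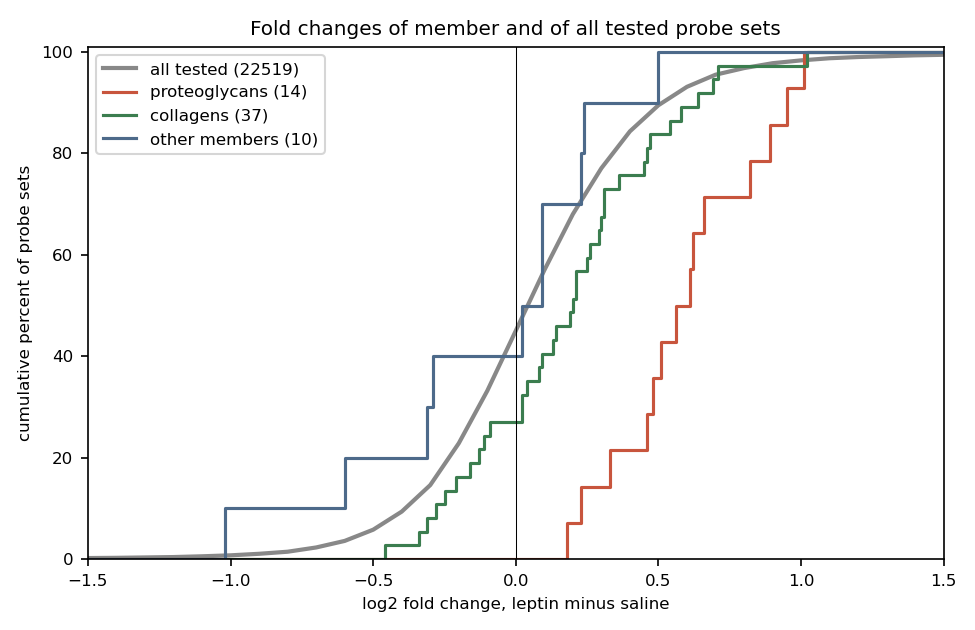
Cumulative percent of probe sets (vertical axis) against the log2 fold change, leptin minus saline (horizontal axis), for the 14 proteoglycan, 37 collagen and 10 other member probe sets and all 22519 tested. The proteoglycan curve starts right of 0 on this scale (median 0.58; with median centring 12 of 14 are positive), and the collagen curve (median 0.20) runs nearer to that of all probe sets (median 0.04).

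Members also differed in where they were highest. Over the 61 tested probe sets, saline 4 was the lowest of the 8 pools for 25 and saline 1 for 15, compared with 14.4% and 13.9% of all tested probe sets. Leptin 7 was the highest for 22 and leptin 5 for 18, compared with 19.2% and 12.8% of all. Leptin 5 was the highest for both Ogn probe sets, Prelp 1416321_s_at and every tested Fmod probe set, whereas leptin 7 was the highest for Col3a1 1427884_at, Col6a2 1452250_a_at and Col15a1. Probe sets of a gene mostly had the same direction. Of 20 genes with more than 1 tested probe set, 17 had a single sign, and Col1a1, Col5a1 and Sparc did not. The other 50 member probe sets were too dim to test, and 17 of them lay under the background signal of 46.0 in all 8 pools. The 50 include every probe set of 19 genes, among them the cartilage chains Col2a1, Col9a1, Col9a2, Col9a3, Col10a1, Col11a1 and Col11a2 and the epithelial transmembrane collagen Col17a1. Fitted without the filter, none of the 50 was called by limma, and their lowest adjusted p was 0.166. Of the 61 tested, 1 (Col20a1 1425235_s_at, in leptin 7) was under background in any pool.

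Genes that act around these members were taken from 6 lists. Of 19 tested genes of the TGF-beta pathway, the main inducer of matrix genes, 1 rose and 2 fell, against 8.27% of all genes called in either direction. Ccn2, the TGF-beta target also called connective tissue growth factor, read 4764.1, 4313.2, 4922.9 and 4245.6 with saline and 1865.7, 2178.3, 3366.3 and 1546.3 with leptin. The pools were far apart, with leptin 7 nearest to the saline range, and it fell (-1.08 ± 0.19, limma adjusted p = 0.00452). The call held in 18 of 19 alternatives and was lost with the actin ratio as covariate (-0.70, adjusted p = 0.141, range 7.83e-05 to 0.141). Smad2, which carries the receptor signal to the nucleus, fell as well, from 429.0, 356.0, 374.0 and 416.4 to 282.0, 239.2, 255.1 and 286.3 (-0.55 ± 0.14, adjusted p = 0.0284). No pool overlapped, but the call was lost without saline pools 1, 2 or 4 or leptin 6 (0.0514 to 0.0813). Ltbp2, a fibrillin-binding protein of the latent TGF-beta binding family, rose from 83.9, 117.2, 128.8 and 73.0 to 226.8, 148.0, 266.0 and 190.2 (0.99 ± 0.24, adjusted p = 0.0268). Its pools were separate, and the call was lost without saline pools 1 or 4 or leptin pools 5, 7 or 8 (0.0557 to 0.0735). It was also lost with quantile scaling, loess scaling, no filter and the actin covariate (0.0570 to 0.247). Tgfb1 itself differed by 0.71 ± 0.23 (adjusted p = 0.0801) and was called without saline 3 (0.0389, range over alternatives 0.0389 to 0.404).

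Among 5 tested collagen receptor and uptake genes, cathepsin K (Ctsk), a protease that cuts triple-helical collagen, rose from 117.7, 126.0, 67.4 and 101.4 to 250.4, 184.6, 248.1 and 256.2 (1.15 ± 0.22, limma adjusted p = 0.00787). Leptin 6 was the lowest leptin pool and still above all saline pools. Macrophages also express Ctsk, whose 7 markers rose too, and their part in it was not tested. The call was lost with the actin ratio as covariate (1.22, adjusted p = 0.0734, range over alternatives 0.00672 to 0.0734). Among 4 tested other proteoglycans, serglycin (Srgn), the granule proteoglycan of blood-derived cells, rose from 1164.9, 1293.9, 1210.4 and 1404.1 to 2215.7, 2251.1, 2315.6 and 2732.5 (0.90 ± 0.11, adjusted p = 0.00036). Its pools were wide apart and it was called in all 19 alternatives. Asporin (Aspn), the relative of biglycan that is encoded near Ogn with Omd between them, was not called (0.38 ± 0.20, adjusted p = 0.286).

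No gene was called by limma among 18 tested for collagen folding and processing, 11 basement membrane partners and 10 elastic fibre partners. An unadjusted p under 0.05 was reached by 3, 3 and 4 of them. This looser cut was also passed by every called gene, 8.27% of all tested, and by further genes. The full share of all genes at this cut was not counted, so these counts cannot be compared with it. Median log2 fold changes of these lists were 0.09, -0.15 and 0.24. The lowest adjusted p values belonged to P4ha2, a subunit of the prolyl hydroxylase that stabilises the triple helix (-0.68 ± 0.19, adjusted p = 0.0534), agrin (Agrn), a basement membrane proteoglycan (-0.66 ± 0.18, adjusted p = 0.0505), and fibulin 1 (Fbln1, 0.47 ± 0.15, adjusted p = 0.0819). Agrn was called without saline 2 (0.0373, range over alternatives 0.00702 to 0.616) and also with median centring, a larger pseudocount and a stricter filter. P4ha2 was called without leptin 7 (0.0379, range 0.00701 to 0.632), and also with quantile scaling, loess scaling, median centring, no variance trend and array weights (0.00701 to 0.0464). The integrin chain Itgb1, shared by collagen receptors, differed by -0.27 ± 0.10 (adjusted p = 0.129).

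**Figure D4:**
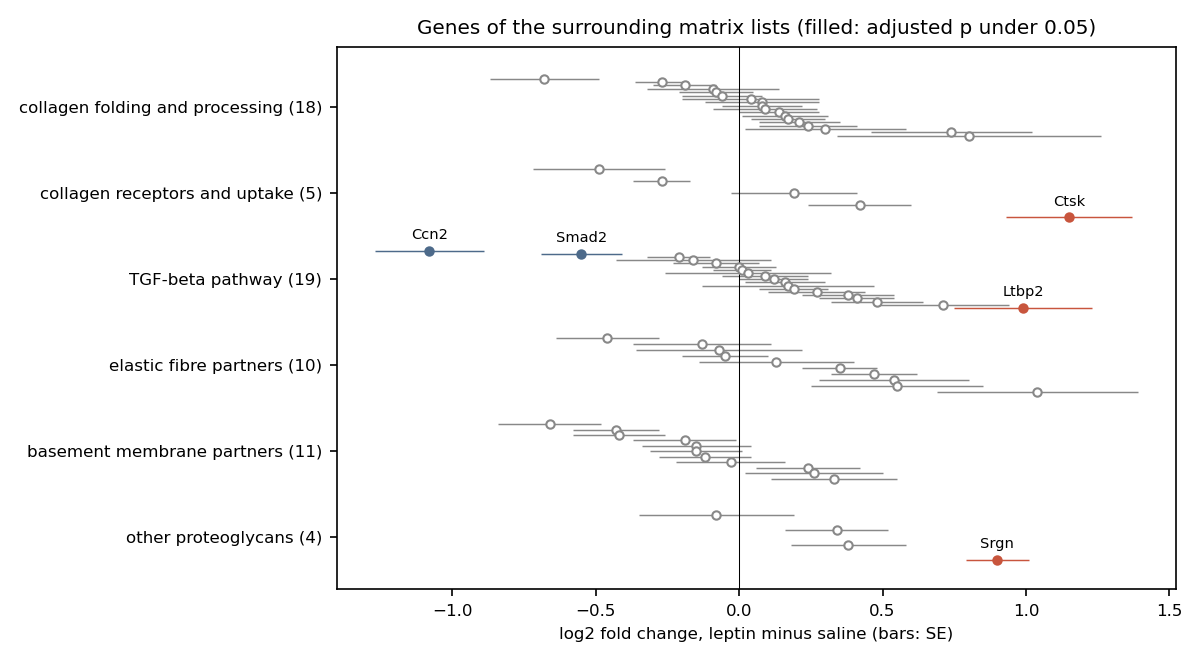
Log2 fold change (leptin minus saline, horizontal axis, bars SE) of each tested gene of the 6 lists around the members; filled and named points passed an adjusted p under 0.05. Ccn2 (-1.08) and Smad2 (-0.55) lie left of 0, and Ltbp2 (0.99), Ctsk (1.15) and Srgn (0.90) right of it.

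**Figure D5:**
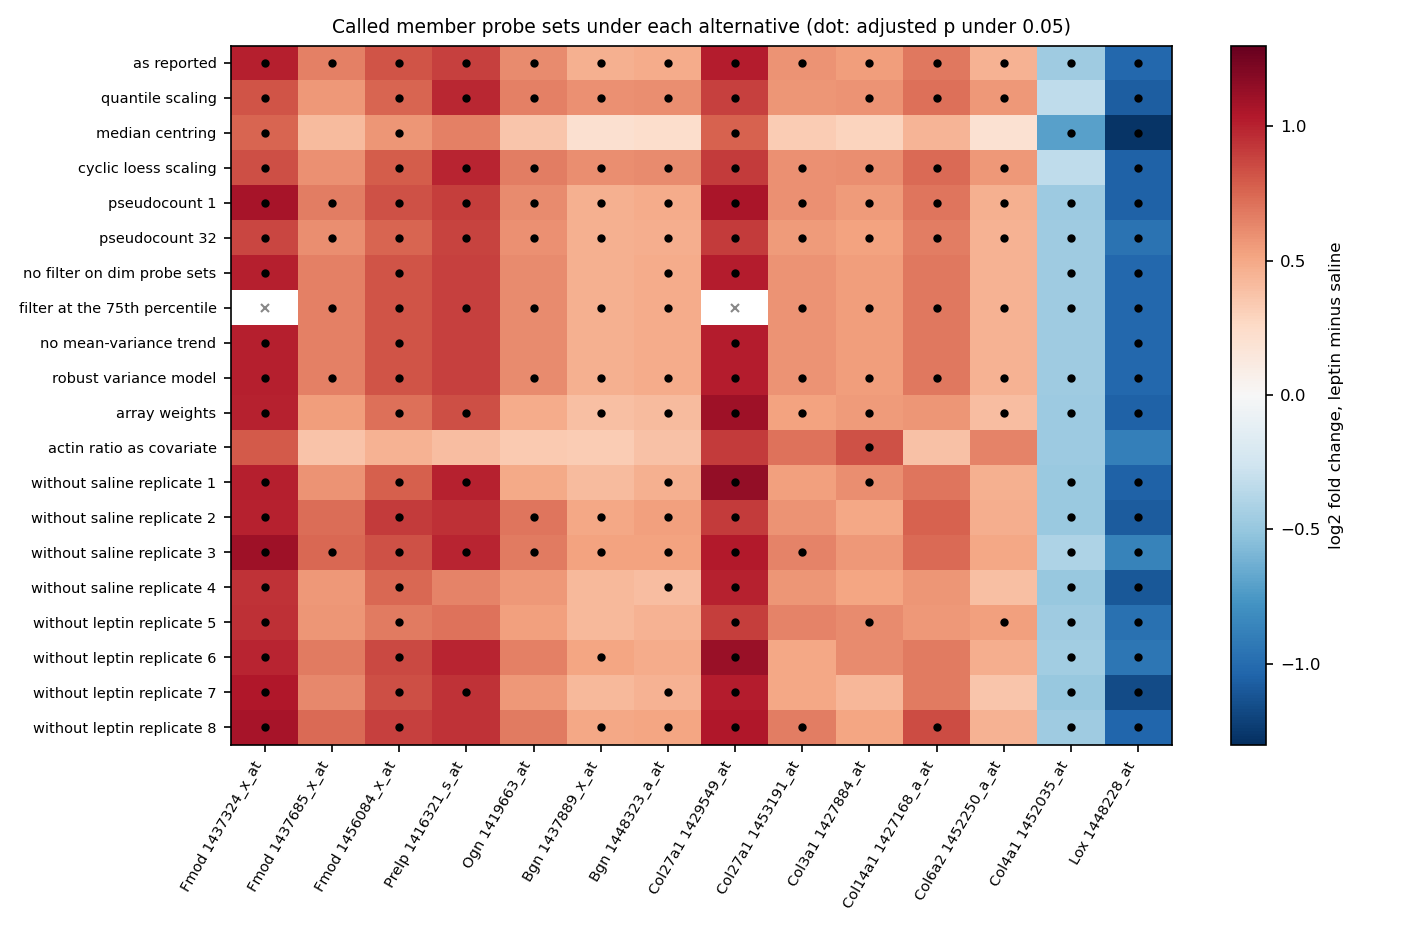
Log2 fold change (colour, leptin minus saline) of the 14 called member probe sets (columns) under each processing alternative (vertical axis); a dot marks an adjusted p under 0.05 and a cross a probe set not tested there. Columns with dots nearly throughout are Lox 1448228_at, Fmod 1456084_x_at and 1437324_x_at and Col27a1 1429549_at, each lost with the actin ratio as covariate.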

How the data were processed

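RNA from 8 pools was measured on Affymetrix Mouse Genome 430 2.0 arrays. The deposited values are linear intensities, the MAS 5.0 signal of every probe set in every pool, made by the authors with MAS5 per the submitters' processing notes and scaled to 1 trimmed mean. Such scaling hides any change shared by all transcripts. No scan date was in the sources used here, and no batch was tested. The number of arrays limits the precision.

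Signals were divided by the array's 2% trimmed mean (multiplied back to a mean of 250) and log2(signal + 8.2) was used. The added 8.2, the 10th percentile over the table, understates folds of dim probe sets. Of 45101 probe sets, 64 controls were left out and the 22519 at or above the median were tested with limma 3.58.1 in R 4.3.3 (lmFit, eBayes with a variance trend), two-sided, n = 4 pools each, adjusted by Benjamini-Hochberg over all tested. The brightest probe set stood for a gene. Background was 46.0, the 95th percentile of 27 bacterial control probe sets. Symbols of 34754 of 34958 probe sets were updated through Entrez identifiers to assembly GRCm38.p6. The fit was tested on simulated data.

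Members, lists, roles and alternatives were chosen with earlier results of these data known. Named were all members called or not collagens, the 10 brightest members, genes whose probe sets disagree, those nearest the threshold (2 on each side), and of each list up to 4 called genes and, where fewer were called, the uncalled gene with the lowest p; other members are given as examples of their group, chosen after their values were seen. Alternatives covered scaling, pseudocount, filter, variance model, array weights, the actin ratio as covariate, the mean of a gene's probe sets and each pool left out.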

Additional observations from a re-analysis of the deposited data

Results flagged for a closer look

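Over 90 groups of 4 pools (45 named probe sets in 2 treatments), 6 had a pool whose gap to its nearest neighbour took a larger share of the group's range than the 95% critical value of Dixon's test, which chance passes in about 1 in 20 groups. Saline 4 was low for Prelp 1416321_s_at (556.8, next 1054.5, share of the range 0.846) and for Col6a1 (1189.9, next 1666.5, share 0.930). Leptin 7 was high for Lox 1416121_at (727.1, next 363.4, share 0.954) and for Col4a1 1452035_at (3396.5, next 3142.9, share 0.863), where saline 3 was also high among saline pools (5056.1, next 4262.3, share 0.852). Leptin 6 was low for Ctsk (184.6, next 248.1, share 0.901).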

How the results depend on the processing

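No paired analysis was possible because the treatments share no replicate number. Of all tested probe sets 1561 were called as reported, 3992 with median centring (406 higher, 3586 lower), 654 with the actin ratio as covariate and 884 to 1431 without a pool. At the 75th percentile filter the split was 462 higher and 817 lower. Of member probe sets 14 were called as reported (12 higher, 2 lower), 6 without the filter, 4 without the variance trend, 1 with the actin covariate, 6 to 11 without a pool, and 10 with median centring (3 higher, 7 lower), of which 5 were among the reported calls. Member genes called were 8 as reported (7 higher, 1 lower), 5 with median centring (1 higher, 4 lower), 2 without the filter, 1 without the trend, 5 by the mean of a gene's probe sets, 0 with the actin covariate (limma; 7 at an unadjusted p under 0.05), 7 higher and 0 lower with quantile and 8 higher and 0 lower with loess scaling, and 2 to 6 without a pool. Pathway genes called were 5 as reported, 15 with median centring (3 higher, 12 lower), 8 with array weights, 1 with the actin covariate, 3 to 6 without a pool, and with quantile and with loess scaling 2 higher and 3 lower. The exact permutation p of the actin ratio was 0.0286 to 0.0857 without a pool, and 0.0286 without leptin 7. With median centring the log2 fold change changed sign, without a call, for Loxl1 (-0.23), Eln (-0.16), Fn1 (-0.01), Postn (-0.02), Dcn (-0.07), Col1a2 (-0.12), Col6a1 (-0.06), Col6a2 1426947_x_at (-0.05) and Bgn 1416405_at (-0.02). With the actin covariate it did for Loxl1 (-0.01), Fn1 (-0.15), Dcn (-0.08), Bgn 1416405_at (-0.13) and Fmod 1415939_at (-0.07). Loxl1 also changed sign with array weights (-0.05) and without saline 1 (-0.01), saline 4 (-0.05) or leptin 7 (-0.04), with a range of -0.05 to 0.07 without a pool. The cause of these changes was not tested. Of the 14 member calls, 9 were lost on leaving out at least 1 pool, and 19 member genes were too dim to test.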
